A study of Mus musculus with 8 samples.

Results

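The genes described here encode the core and accessory subunits of Polycomb repressive complex 2 (PRC2): Ezh2, Ezh1, Eed, Suz12, Rbbp4, Rbbp7, Jarid2, Aebp2, Mtf2 and Phf19. They are 10 of the 25247 genes in the count table and were listed by name, with earlier results of these data known. RNA was sequenced in bulk from Langerhans cells, which sample antigen in the epidermis, after sorting from the ears of Ezh2 knockout (KO, EZH2 -/- in the labels) and wild-type (WT) mice. All groups were on the C57BL/6 background. The labels give no age, no Cre driver, no deleted exons and no link between libraries and animals. The p-values therefore reflect the variation among these libraries only, and that variation may be technical.

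Sample titles and sample descriptions carried library codes that disagreed for 4 of the 8 libraries. RMN038 and RMN039 were KO, and RMN030 and RMN031 were WT, in both fields. RMN032 and RMN033 were KO by title and WT by description, whereas RMN036 and RMN037 were WT by title and KO by description. Each comparison is therefore given for the 4 undisputed libraries, for the title reading and for the description reading (4 KO against 4 WT libraries in each of the last). Codes 036 to 039 are called the later code run and codes 030 to 033 the earlier one. The labels do not say what the code order marks. Genotype and code run cannot be told apart in the undisputed libraries or in the description reading, whose groups are the code runs themselves.

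PRC2 methylates histone H3 at lysine 27, a mark of silenced genes. Ezh2 and its paralogue Ezh1 are the alternative catalytic subunits, and Eed, Suz12 and the histone chaperones Rbbp4 and Rbbp7 complete the core. A core complex joins either Jarid2 and Aebp2, the PRC2.2 form, or a Polycomb-like protein such as Mtf2 or Phf19, the PRC2.1 form. Ezh2 is known to be high in dividing cells, where E2F factors drive its transcription, while Ezh1 is typical of resting cells.

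The start regions of the catalytic pair, and of the other members with an E2F-type motif, are shown because the pair is the centre of the comparisons below. They are RefSeq sequences of build GRCm38.p6, 250 bases before to 20 bases after the annotated start, 5′ to 3′ on the gene's own strand, and all 10 members matched an entry. Ezh2 lies at chr6:47595011-47595280 (minus strand), Ezh1 at chr11:101226444-101226713 (minus strand), Suz12 at chr11:79992856-79993125 (plus strand) and Phf19 at chr2:34913957-34914226 (minus strand). Capitals mark a match to an E2F-type motif.
Ezh2: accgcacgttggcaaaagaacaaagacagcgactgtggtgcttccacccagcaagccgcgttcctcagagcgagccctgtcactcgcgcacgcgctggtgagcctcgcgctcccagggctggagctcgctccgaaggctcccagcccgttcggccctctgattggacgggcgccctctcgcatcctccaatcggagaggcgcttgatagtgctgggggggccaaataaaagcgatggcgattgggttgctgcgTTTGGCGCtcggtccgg
Ezh1: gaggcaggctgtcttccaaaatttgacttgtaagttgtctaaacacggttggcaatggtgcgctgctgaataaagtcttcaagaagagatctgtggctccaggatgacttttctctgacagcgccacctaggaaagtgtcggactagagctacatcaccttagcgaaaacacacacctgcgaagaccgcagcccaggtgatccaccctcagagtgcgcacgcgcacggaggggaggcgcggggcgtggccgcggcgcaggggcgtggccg
Suz12: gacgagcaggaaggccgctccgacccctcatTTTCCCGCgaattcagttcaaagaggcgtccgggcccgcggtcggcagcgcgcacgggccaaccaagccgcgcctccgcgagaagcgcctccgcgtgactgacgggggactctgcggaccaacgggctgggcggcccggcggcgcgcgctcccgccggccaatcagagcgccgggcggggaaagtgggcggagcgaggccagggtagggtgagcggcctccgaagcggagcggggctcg
Phf19: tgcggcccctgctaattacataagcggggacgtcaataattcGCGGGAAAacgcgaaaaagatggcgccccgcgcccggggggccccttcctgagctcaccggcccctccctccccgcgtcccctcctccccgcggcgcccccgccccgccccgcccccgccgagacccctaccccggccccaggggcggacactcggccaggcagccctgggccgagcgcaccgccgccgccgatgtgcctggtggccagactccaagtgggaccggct
The letters searched on both strands were TTTCCCGC or TTTGGCGC or TTTCGCGC or TTTGCCGC, which do not overlap each other in these windows. Ezh2 held TTTGGCGC from base 4 after the start, Suz12 held TTTCCCGC from position -219 relative to it, and Phf19 held TTTCCCGC on the opposite strand at position -208. No match was found for the other 7 members, Ezh1 among them. Of all 32851 windows of this length in the table, 664 (2.02%) held a match. A match is a description of these letters and not evidence of binding.

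Total counts ranged from 11051402 to 18966195 per library. All 10 Langerhans cell markers were detected in every library, with Cd207, which encodes langerin, at 9706 to 11963 CPM (counts scaled to the library's total count). Markers of other cell types were also detected, at levels that differed between libraries. Those of keratinocytes were abundant throughout, with Krt14 alone at 6463 to 8876 CPM. The levels given below may therefore hold RNA of other cells beside Langerhans cells, and the share of each was not tested. The 15 T lineage markers summed to 312.0 and 312.5 CPM in RMN030 and RMN031, against 4.22 to 8.94 CPM in the other 6 libraries, and Cd3e, Cd3d, Cd3g, Trac, Lat, Cd8a, Cd8b1, Dntt, Rag1, Ccr9 and Rhoh, 11 of the 15, were at 0 in at least 1 library. The 5 red blood cell markers summed to 580 to 1355 CPM in the later code run, against 122 to 226 CPM in the earlier, and the 5 fibroblast markers to 110.0 to 176 CPM, against 35.6 to 49.1 CPM. The 6 mast cell markers summed to 46.2 to 65.6 CPM in the later run, against 31.1 to 43.3 CPM in the earlier, to which Kit gave 18.2 to 30.9 CPM, against 26.2 to 37.3 CPM. Of them, edgeR called 4 of 5 tested higher in KO by description, which is also the later run: Mcpt4 had 4.17 to 8.99 CPM, against 0.32 to 0.49 CPM, Cpa3 5.26 to 13.3 CPM, against 0 to 1.62 CPM, and Cma1 and Tpsb2 were the others. Fcer1a was at 0 in at least 1 library of each run. The 6 macrophage markers summed to 582 to 619 CPM in the later run, against 463 to 598 CPM in the earlier, a sum carried mostly by Adgre1. By description edgeR called Lyz2 (114 to 158 CPM, against 46.1 to 78.7 CPM) and F13a1 (14.0 to 24.4 CPM, against 2.21 to 7.54 CPM) higher and C1qa (47.1 to 76.9 CPM, against 87.0 to 134 CPM) lower in KO. Cd163, not called by description, had 9.71 to 12.2 CPM in the later run, against 0 to 2.75 CPM in the earlier. In the undisputed libraries edgeR called Cd163, F13a1 and Lyz2 higher in KO (log2 differences 2.14, 1.66 and 1.01), 3 of 6 macrophage markers tested. It also called 13 of 15 T lineage markers lower there, and 5 of 5 red blood cell and 3 of 5 fibroblast markers higher. Over all genes tested, 0.794% were called in these libraries. The 10 keratinocyte markers summed to 12701 to 14660 CPM in the later run, against 12118 to 15655 CPM in the earlier, a sum carried mostly by Krt14 and Krt5. By description edgeR called Cldn4, Krt79 and Krt1 higher in KO (log2 differences 1.11, 1.11 and 0.87) and Krt15 and Trp63 lower (-0.45 and -0.74), 5 of 9 tested, and Lor was at 0 in at least 1 library. Mitochondrial genes took 3.76% to 4.03% of counts in the later run, against 1.02% to 1.87% in the earlier. The part of these differences in the results below was not tested, except where a value without RMN030 and RMN031 is given. In bulk RNA, fewer cells of a type and less RNA per cell cannot be told apart.

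All 10 genes were expressed, and their levels per length spanned from Rbbp7 to Phf19. Levels between genes are compared as RPKM, here CPM per kilobase of merged annotated exons, averaged over the 8 libraries. Rbbp7 stood first at 45.6 ± 5.77 RPKM, followed by Rbbp4 at 11.5 ± 0.57, Eed at 9.60 ± 2.06, Jarid2 at 9.33 ± 1.59 and Ezh1 at 8.58 ± 0.97 RPKM (SD, n = 8). Mtf2 had 4.85 ± 0.66 RPKM, Aebp2 2.65 ± 0.37, Ezh2 2.39 ± 0.55, Suz12 2.36 ± 0.49 and Phf19 0.50 ± 0.19 RPKM (SD, n = 8). The steps from Rbbp7 to Rbbp4, Ezh1 to Mtf2, Mtf2 to Aebp2 and Suz12 to Phf19 held in 8 of 8 libraries. Rbbp4 exceeded Eed in 7 libraries, while Eed exceeded Jarid2 in 5 and Jarid2 exceeded Ezh1 in 6, so those 3 genes had no fixed order. Aebp2 exceeded Ezh2 in 6 libraries and Ezh2 exceeded Suz12 in 3. With the length of the longest protein-coding transcript in place of merged exons, Ezh1 moved ahead of Jarid2 and Ezh2 ahead of Aebp2 in the mean. Aebp2 then exceeded Ezh2 in 2 libraries, and Ezh2 exceeded Suz12 in 8 of 8 (means 5.74 and 2.67).

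**Figure D1:**
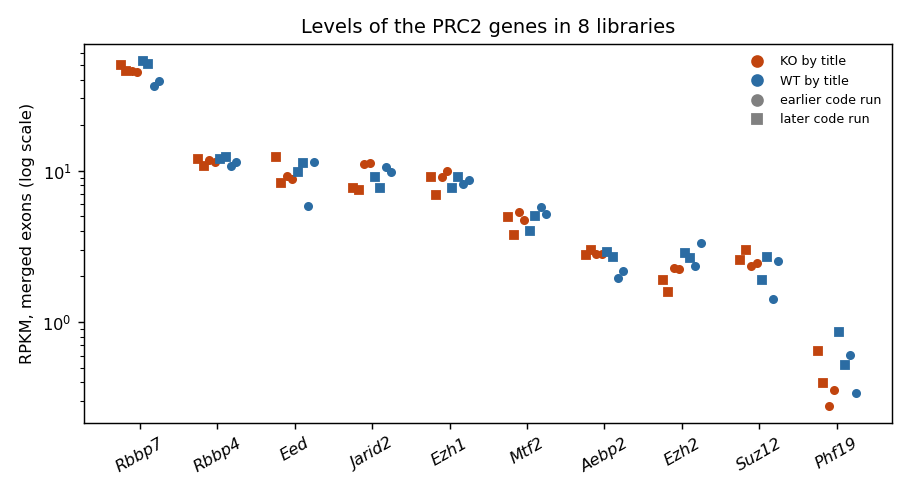
RPKM of each PRC2 gene (log scale) in the 8 libraries, genes ordered by mean level; colour gives the genotype by title (KO, WT), and shape the code run. Rbbp7 lies above Rbbp4 in every library, and Phf19, with 0.28 to 0.85 RPKM, lies below all others.

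The genes differed more in their steadiness than counting error alone gives. Rbbp4 varied least over the 8 libraries, with a coefficient of variation of 4.92% of its CPM, where counting error alone gives 2.53%. Phf19 varied most, at 38.8% against 16.2% from counting error, on 22 to 64 counts per library. Ezh2 varied by 23.0%, Eed by 21.4% and Suz12 by 20.8%. The other 5 genes lay between 11.3% (Ezh1) and 17.0% (Jarid2). Of the counts between 1 and 20 in the table, 60.1% were even. The sources used here do not say whether the mates of a pair were counted separately, in which case counting errors are larger than given.

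Ezh2 (GRCm38 chromosome 6, 47530139 to 47595341, minus strand) encodes the main methyltransferase subunit and is the targeted gene. Its CPM was 12.7 in RMN038 and 10.5 in RMN039 (KO), 15.2 in RMN032 and 14.9 in RMN033, 19.0 in RMN036 and 17.6 in RMN037, and 15.7 in RMN030 and 22.4 in RMN031 (WT). The undisputed KO libraries were lowest, and RMN031 was highest. The transcript was thus detected in every library, on 116 to 415 counts over the whole gene. Since the deleted part is not given, these counts do not check the genotype labels.

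In the title reading the KO libraries held 10.5 to 15.2 CPM of Ezh2, against 15.7 to 22.4 CPM in WT, without overlap, and the closest libraries were RMN032 and RMN030. The log2 difference was -0.49 (95% CI -0.89 to -0.09), and it was -0.50 (95% CI -0.90 to -0.11) with code run as a covariate. Neither passed the threshold of 0.05 in edgeR's quasi-likelihood test after Benjamini-Hochberg adjustment over all genes (adjusted p = 0.998 and 0.709). Within the later code run the difference was -0.63 and within the earlier -0.37, and leaving out RMN030 and RMN031 gave -0.47. The undisputed libraries gave -0.66 (95% CI -1.34 to 0.01, edgeR adjusted p = 0.455), and -0.41 without RMN031. In the description reading the groups overlapped, the difference was -0.15 (95% CI -0.63 to 0.33, edgeR adjusted p = 0.869), and it turned to 0.05 without RMN030 and RMN031.

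Ezh1 (chromosome 11, 101191115 to 101226463, minus strand), the paralogue with weaker methyltransferase activity, was the more abundant of the pair in every library. Its CPM was 67.3 in RMN038 and 51.1 in RMN039 (KO), 67.6 in RMN032 and 74.3 in RMN033, 57.1 in RMN036 and 67.9 in RMN037, and 61.1 in RMN030 and 64.2 in RMN031 (WT). The highest and the lowest library both carried the KO title, and the groups overlapped in all 3 readings. The edgeR log2 differences were -0.03 (95% CI -0.47 to 0.40) in the undisputed libraries, 0.05 (95% CI -0.22 to 0.32) by title and -0.09 (95% CI -0.35 to 0.17) by description, with adjusted p from 0.841 to 0.998.

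**Figure D2:**
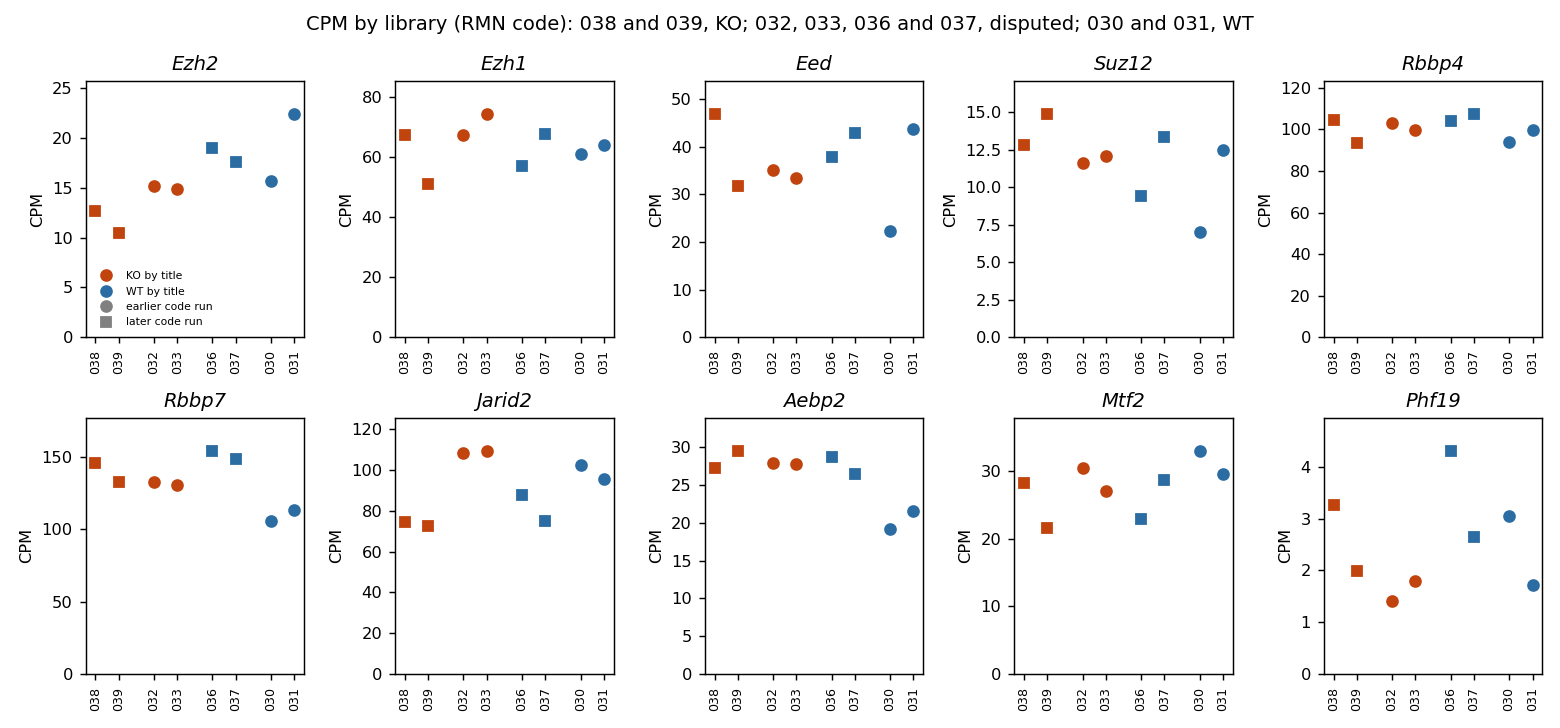
CPM (from 0) of each PRC2 gene in the 8 libraries, ordered as RMN038 and RMN039 (KO), the 4 disputed libraries, and RMN030 and RMN031 (WT); colour gives the genotype by title and shape the code run. Ezh2 is lowest in RMN038 and RMN039, at 12.7 and 10.5 CPM, and Jarid2 is lower in the later code run (squares) than in the earlier.

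The ratio of Ezh1 to Ezh2, per length, put Ezh1 above Ezh2 by 2.58 to 4.75 times. It was 4.75 in RMN038 and 4.37 in RMN039 (KO), 3.99 in RMN032 and 4.47 in RMN033, 2.70 in RMN036 and 3.46 in RMN037, and 3.50 in RMN030 and 2.58 in RMN031 (WT). Every library titled KO lay above every library titled WT, also within each code run. As a share of the summed Ezh1 and Ezh2 counts, Ezh2 made up 15.9% in RMN038 (95% exact binomial interval 13.8% to 18.1%), 17.0% in RMN039 (14.3% to 20.1%), 18.4% in RMN032 (16.3% to 20.5%) and 16.7% in RMN033 (15.0% to 18.6%). The share was 24.9% in RMN036 (22.4% to 27.6%), 20.6% in RMN037 (18.5% to 22.8%), 20.4% in RMN030 (17.9% to 23.0%) and 25.8% in RMN031 (23.7% to 28.1%). The intervals cover counting error only. Those of all libraries titled KO overlap the interval of RMN030, titled WT. The intervals of RMN032, RMN033 and RMN039 also overlap that of RMN037, titled WT.

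By title the mean log2 ratio was 2.13 ± 0.10 in KO and 1.60 ± 0.23 in WT libraries (SD, n = 4 each), a 1.45-fold higher ratio in KO. The exact two-sided permutation test gave p = 0.0286, the smallest p that 4 against 4 allows. After Benjamini-Hochberg adjustment over the 3 readings it was 0.0857, which misses the threshold. No lower adjusted p was possible for the title reading. The undisputed libraries cannot give less than 0.333, and the title and description splits cannot both reach 0.0286. The miss therefore says nothing about the ratio. The undisputed libraries gave 2.19 ± 0.09 in KO and 1.59 ± 0.31 in WT (SD, n = 2 each), a 1.52-fold difference with no overlap and an exact permutation p of 0.333, the smallest that 2 against 2 allows (adjusted p = 0.5). Without RMN031 its log2 difference was 0.38, and without RMN030 it was 0.82, against 0.60. The description reading gave 1.90 ± 0.37 in KO and 1.83 ± 0.34 in WT (SD, n = 4 each), with overlap (1.05-fold, exact permutation p = 0.771, adjusted p = 0.771). The ratio shares its Ezh2 counts with the Ezh2 levels above and is no separate evidence of them.

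**Figure D3:**
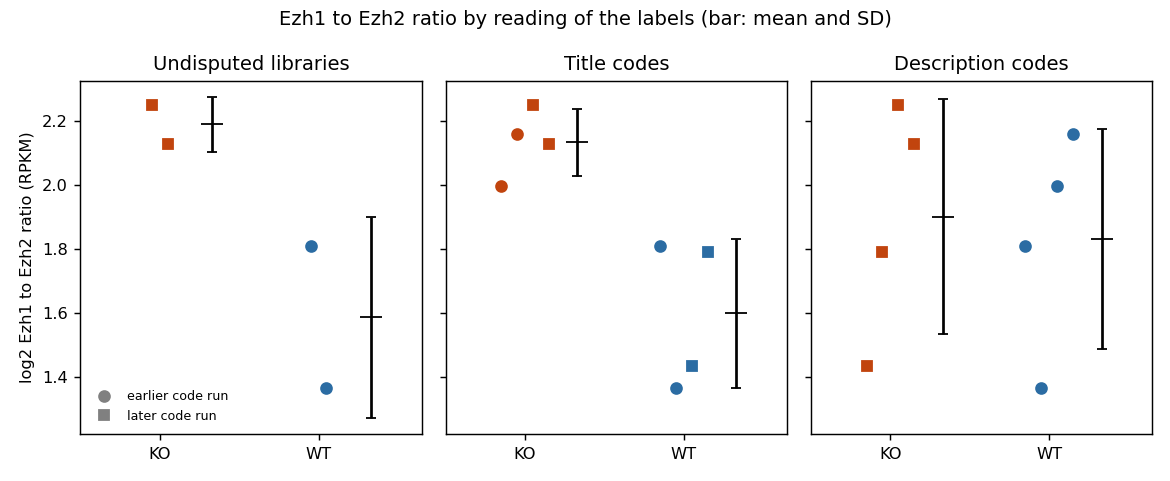
log2 ratio of Ezh1 to Ezh2 RPKM per library, in KO and WT groups formed from the undisputed libraries, the title codes and the description codes; points are libraries, shape gives the code run, and bars give mean and SD. KO lies above WT without overlap in the undisputed and title panels, and the groups overlap in the description panel.

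Suz12 (chromosome 11, 79993106 to 80034123, plus strand), the scaffold of the complex, was highest in RMN039 and lowest in RMN030. Its CPM was 12.8 in RMN038 and 14.8 in RMN039 (KO), 11.6 in RMN032 and 12.1 in RMN033, 9.41 in RMN036 and 13.3 in RMN037, and 7.03 in RMN030 and 12.4 in RMN031 (WT). The undisputed groups did not overlap, by a margin of 12.8 against 12.4 CPM, while the groups of both 8-library readings did. The edgeR log2 difference was 0.55 (95% CI -0.23 to 1.33), 0.28 (95% CI -0.23 to 0.78) and 0.27 (95% CI -0.23 to 0.76) in the undisputed, title and description readings, with adjusted p of 0.634, 0.998 and 0.716. Its size rested on single libraries: without RMN030 it was 0.21, 0.13 and 0.12 in the same readings, and without RMN031 it was 0.99 in the undisputed libraries.

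Eed (chromosome 7, 89954654 to 89980983, minus strand), which binds the methylated histone tail and stimulates the enzyme, varied 2.09-fold between libraries. Its CPM was 46.8 in RMN038 and 31.8 in RMN039 (KO), 35.2 in RMN032 and 33.5 in RMN033, 37.8 in RMN036 and 42.9 in RMN037, and 22.4 in RMN030 and 43.7 in RMN031 (WT). The spread lay within the groups, since the undisputed WT libraries held both the lowest and nearly the highest value. In the title reading the edgeR log2 difference was 0.00 (95% CI -0.45 to 0.46), and its largest size in the other readings was 0.30 (95% CI -0.39 to 0.98, adjusted p = 0.807) in the undisputed libraries.

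Rbbp4 (chromosome 4, 129307100 to 129335370, minus strand), a histone chaperone that also serves the NuRD, Sin3 and CAF-1 complexes, held 93.7 to 107 CPM over the 8 libraries. KO and WT overlapped in each of the 3 readings, and the edgeR interval of the title difference was -0.23 to 0.18 on the log2 scale (estimate -0.02).

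Rbbp7 (chromosome X, 162760402 to 162779092, plus strand), its close paralogue, was the most abundant member and differed between libraries. Its CPM was 146 in RMN038 and 132 in RMN039 (KO), 132 in RMN032 and 130.3 in RMN033, 154 in RMN036 and 148 in RMN037, and 106 in RMN030 and 113 in RMN031 (WT). The later code run held 132.20 to 154 CPM and the earlier 106 to 132.24 CPM, with the closest pair, RMN039 and RMN032, nearly equal. The description reading, which is also the code run, gave a log2 difference of 0.31 (95% CI 0.11 to 0.52) that did not pass in edgeR (adjusted p = 0.139). DESeq2 called it (adjusted p = 0.0341), and the adjusted p ranged from 0.0341 to 0.519 over the 15 alternatives. Without RMN030 and RMN031 the difference was 0.20. The undisputed libraries gave 0.39 (95% CI 0.06 to 0.72, edgeR adjusted p = 0.362) and the title reading 0.05 (95% CI -0.24 to 0.34).

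Rbbp7 exceeded Rbbp4 per length by 4.19 and 4.24 times in RMN038 and RMN039 (KO), 3.86 and 3.93 times in RMN032 and RMN033, 4.44 and 4.16 times in RMN036 and RMN037, and 3.38 and 3.40 times in RMN030 and RMN031 (WT). All 4 libraries of the later code run thus lay above all 4 of the earlier run. This ratio shares its Rbbp7 counts with the Rbbp7 levels above and is no separate evidence of them. The share of other gene pairs whose ratio separates the code runs was not tested. Rbbp7 made up 41.5% to 50.9% of the summed RPKM of the 10 genes, and the sum itself ranged from 83.8 to 105 RPKM. The protein is shared with other chromatin complexes, so its transcript level is not a level of PRC2.

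Jarid2 (chromosome 13, 44729474 to 44921643, plus strand), a PRC2.2 subunit that helps recruit and stimulate the complex, separated the code runs. Its CPM was 74.5 in RMN038 and 72.6 in RMN039 (KO), 108 in RMN032 and 109 in RMN033, 87.7 in RMN036 and 75.0 in RMN037, and 103 in RMN030 and 95.5 in RMN031 (WT). All later-run libraries lay below all earlier-run libraries. As a KO against WT difference by description this was -0.38 on the log2 scale (95% CI -0.60 to -0.16), with an edgeR adjusted p of 0.0763, and the later minus earlier difference with the title genotype as a covariate was -0.39 (95% CI -0.61 to -0.16, edgeR adjusted p = 0.0803). DESeq2 called both (adjusted p = 0.0107 and 0.0159), and the adjusted p ranged from 0.0107 to 0.206 and from 0.0159 to 0.242 over their alternatives. Leaving out RMN030 and RMN031 gave -0.43 and -0.49. By title the difference was 0.00 (95% CI -0.32 to 0.33), and in the undisputed libraries -0.38 (95% CI -0.75 to -0.01, edgeR adjusted p = 0.429).

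Aebp2 (chromosome 6, 140622663 to 140678472, plus strand), the zinc finger partner of Jarid2 in PRC2.2, was lowest in RMN030 and RMN031. Its CPM was 27.3 in RMN038 and 29.5 in RMN039 (KO), 27.9 in RMN032 and 27.8 in RMN033, 28.8 in RMN036 and 26.5 in RMN037, and 19.2 in RMN030 and 21.5 in RMN031 (WT). The 6 other libraries lay close together whichever genotype they were given. The undisputed log2 difference was 0.52 (95% CI -0.02 to 1.06, edgeR adjusted p = 0.462), that by title 0.22 (95% CI -0.13 to 0.58) and that by description 0.26 (95% CI -0.08 to 0.60). RMN030 and RMN031 are also the libraries with the T lineage transcripts.

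The ratio of Jarid2 to Aebp2 per length separated the code runs. It was 2.77 in RMN038 and 2.49 in RMN039 (KO), 3.93 in RMN032 and 3.99 in RMN033, 3.09 in RMN036 and 2.87 in RMN037, and 5.41 in RMN030 and 4.49 in RMN031 (WT). KO lay below WT without overlap in the undisputed libraries and by description, whereas by title the KO range of 2.49 to 3.99 overlapped the WT range of 2.87 to 5.41. The ratio shares its Jarid2 counts with the Jarid2 levels above and is no separate evidence of them. Jarid2 CPM alone separated the code runs too, which held for 8.82% of all genes tested. How often ratios of other gene pairs separate the code runs was not tested.

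Mtf2 (chromosome 5, 108065674 to 108109004, plus strand), a Polycomb-like protein that brings PRC2.1 to unmethylated CpG-rich DNA, exceeded Phf19 in every library. Its CPM was 28.3 in RMN038 and 21.5 in RMN039 (KO), 30.4 in RMN032 and 26.995 in RMN033, 22.9 in RMN036 and 28.7 in RMN037, and 32.9 in RMN030 and 29.5 in RMN031 (WT). The undisputed KO libraries lay below the WT ones, by a margin of 28.3 against 29.5 CPM that was lost when totals were scaled by TMM. The edgeR log2 differences were -0.28 (95% CI -0.83 to 0.27), -0.10 (95% CI -0.45 to 0.26) and -0.20 (95% CI -0.53 to 0.13) in the undisputed, title and description readings.

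Phf19 (chromosome 2, 34893757 to 34914026, minus strand), the other Polycomb-like protein among the members, was the scarcest member at 1.41 to 4.30 CPM. KO and WT overlapped in every reading. The intervals were wide, -1.23 to 1.61 in the undisputed libraries, -1.42 to 0.48 by title and -0.25 to 1.56 by description on the log2 scale, so that each of them holds a 2-fold difference in at least 1 direction. Mtf2 exceeded Phf19 by 4.71 times in RMN036 and by 19.1 times in RMN032, the extremes. The summed PRC2.2 members (Jarid2 and Aebp2) exceeded the summed PRC2.1 members (Mtf2 and Phf19) by 1.86 to 2.76 times per length. KO and WT overlapped in this ratio in all 3 readings. The PRC2.1 sum leaves out measured accessory genes that are not members. Of these, Phf1 had 22.3 to 35.6 CPM, Lcor 13.2 to 24.6, Lcorl 12.5 to 22.1 and Epop 0.18 to 2.70 CPM. The ratio therefore describes the named members and not the whole PRC2.2 and PRC2.1 forms.

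**Figure D4:**
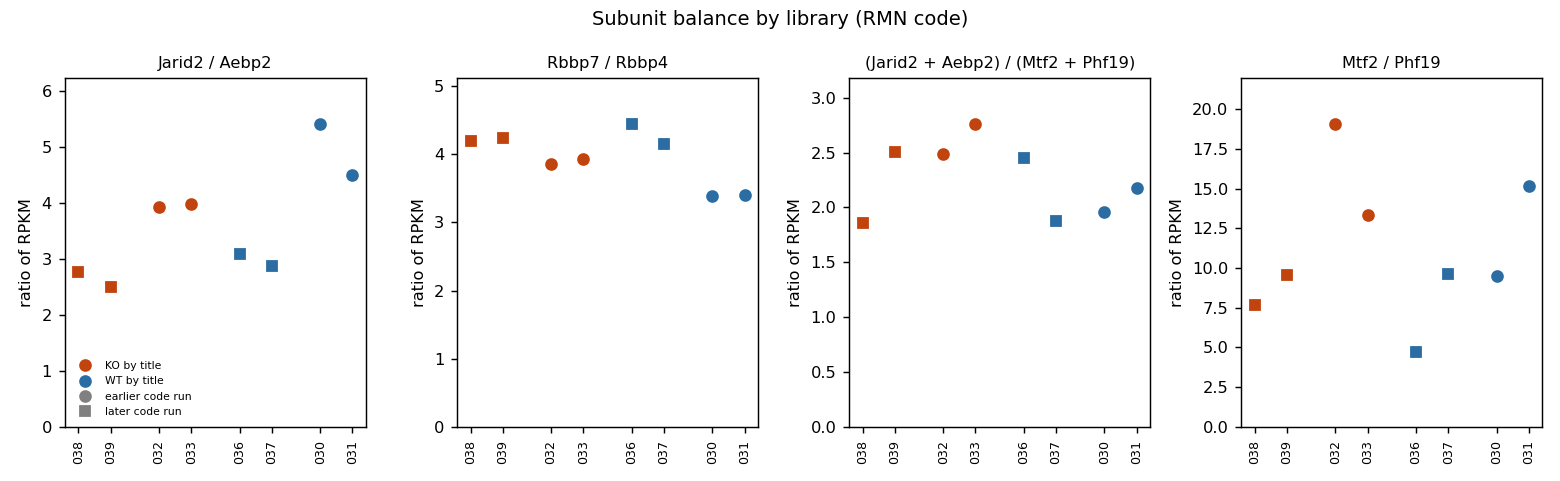
Ratios of summed RPKM, from 0, by library in the order RMN038 and RMN039 (KO), the 4 disputed libraries, and RMN030 and RMN031 (WT); colour gives the genotype by title and shape the code run. Jarid2 to Aebp2 is 2.49 to 3.09 in the later run against 3.93 to 5.41 in the earlier, and Rbbp7 to Rbbp4 is 4.16 to 4.44 against 3.38 to 3.93.

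Counted over the 10 members, all of which passed the filter on low counts, edgeR called 0 in the undisputed libraries, where 0.794% of all genes tested were called. It also called 0 by title (0% of all genes, 0 of 14630) and 0 by description (2.02% of all genes). At an unadjusted p under 0.05 the members numbered 2 (Rbbp7 and Jarid2), 1 (Ezh2) and 2 (Rbbp7 and Jarid2), against 11.3%, 4.59% and 12.6% of all genes. DESeq2 called 0, 0 and 2 members, and called 2.07%, 0.13% and 4.51% of all genes. limma voom called 0 in each, and called 1.00%, 0% and 2.57% of all genes. The median log2 difference of the members was 0.13, 0.00 and 0.17, against 0.00, 0.00 and -0.01 over all genes tested.

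The CPM of KO and WT did not overlap for 6 of the 10 members in the undisputed libraries, where this held for 42.1% of all genes (16.9% higher and 25.2% lower in KO). Suz12, Rbbp7 and Aebp2 were the higher ones, and Ezh2, Jarid2 and Mtf2 the lower ones. By title it held for 1 member, Ezh2, lower in KO, against 2.94% of all genes (1.41% higher and 1.53% lower). By description it held for 1 member, Jarid2, lower in KO, against 8.82% of all genes (3.74% higher and 5.09% lower), and Rbbp7 joined it, higher in KO, when totals were scaled by TMM.

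With title genotype and code run in the same fit, edgeR called 0 members for genotype (0% of all genes called; 6.14% at an unadjusted p under 0.05, against 1 member) and 0 for code run (2.1% of all genes; 12.8% unadjusted, against 2 members). DESeq2 called 0 members for genotype and 2 for code run, and 0.295% and 4.87% of all genes. Within the earlier code run edgeR called 0.375% of all genes and within the later run 0%, and 0 members in each. The test of whether the title difference was larger in the later run than in the earlier, which is also undisputed against disputed libraries, called 0 members (0.0186% of all genes; 7.93% unadjusted, against 0 members). Its estimates for the members ran from -0.34 to 0.25, with a smallest adjusted p of 0.698 for Rbbp7 (edgeR).

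**Figure D5:**
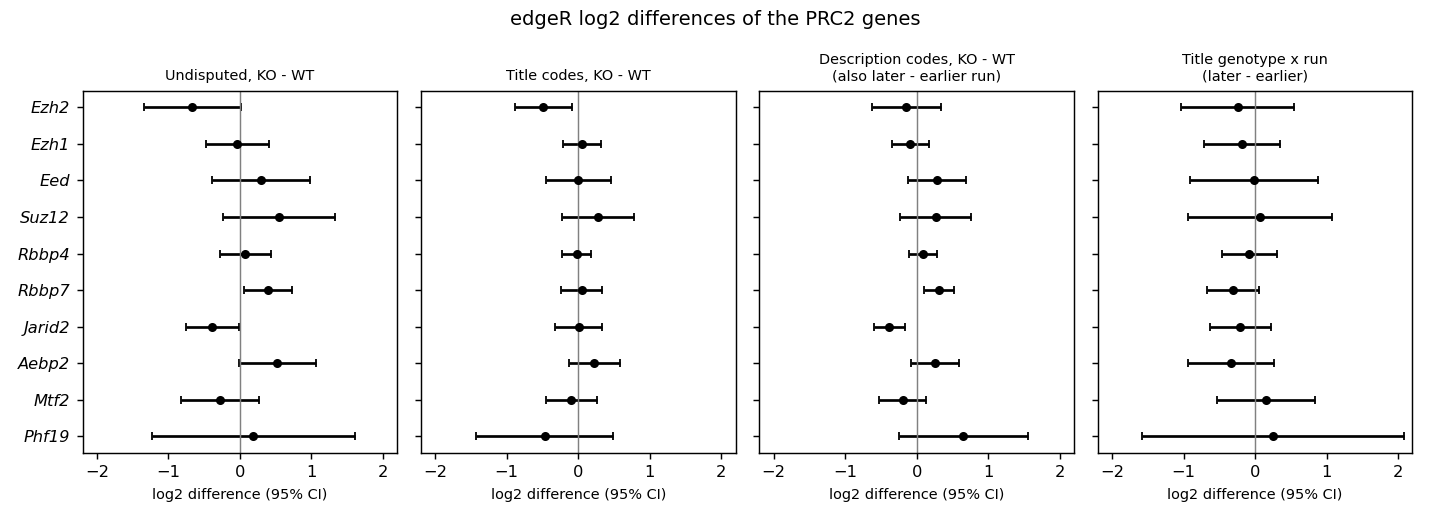
edgeR log2 differences with 95% confidence intervals for the 10 PRC2 genes in the undisputed libraries, the title reading, the description reading (also later minus earlier code run) and the title genotype by code run interaction. The title interval of Ezh2 lies below 0, the description intervals of Jarid2 and Rbbp7 lie below and above 0, and all 10 interaction intervals contain 0.

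Of the other PRC2 accessory and H3K27 demethylase genes, 6 of 7 were tested and 0 rose or fell in any of the 3 readings by edgeR. Kdm6a, an H3K27 demethylase gene, had a log2 difference of -0.17 ± 0.12 by title (SE, adjusted p = 0.998), and its relative Kdm6b had -0.12 ± 0.09 by description (SE, adjusted p = 0.640). Epop, a PRC2.1 component gene, had 1.08 ± 0.77 and Lcorl, which encodes another, -0.04 ± 0.20 by description (SE). At an unadjusted p under 0.05 none of the 6 was counted in any reading, and the list's median was -0.03, 0.07 and -0.04 in the undisputed, title and description readings.

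Among 15 partners of Rbbp4 and Rbbp7 in other complexes, 0 passed in the 3 edgeR readings. Hdac2, a histone deacetylase gene of NuRD and Sin3, had the smallest p. Its CPM was 46.2 and 40.6 in RMN038 and RMN039 (KO), 34.7 and 30.1 in RMN032 and RMN033, 47.1 and 37.8 in RMN036 and RMN037, and 17.2 and 31.3 in RMN030 and RMN031 (WT). The log2 difference was 0.89 ± 0.28 in the undisputed libraries (SE, edgeR adjusted p = 0.240) and 0.65 ± 0.19 by description (SE, edgeR adjusted p = 0.112). Chd4, the NuRD remodeller gene, had -0.17 ± 0.10, Chaf1a, a CAF-1 subunit gene, -0.56 ± 0.43, and Mbd3, a NuRD subunit gene, 0.02 ± 0.17 by description (SE). The list's median was 0.00, 0.00 and -0.01.

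Of 9 E2F and pocket protein genes, 0 passed in the 3 edgeR readings. E2f2, a transcriptional activator gene, came closest in the undisputed libraries. Its CPM was 0.57 and 0.72 in RMN038 and RMN039 (KO), 2.08 and 3.37 in RMN032 and RMN033, 2.69 and 2.34 in RMN036 and RMN037, and 4.35 and 5.66 in RMN030 and RMN031 (WT). The log2 difference was -2.90 ± 0.63 in the undisputed libraries (SE, edgeR adjusted p = 0.0712), where the WT libraries carry the T lineage transcripts, -1.15 ± 0.55 by title and -1.24 ± 0.53 by description. By title, Rbl2, a pocket protein gene, had 0.39 ± 0.16, Rb1, the retinoblastoma gene, 0.07 ± 0.19 and the repressor gene E2f4 -0.37 ± 0.21 (SE). The list's median was 0.13, 0.08 and -0.10.

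Of 15 proliferation genes, 0 passed in the 3 edgeR readings. Mcm2, a subunit gene of the replicative helicase, had the smallest p by title. Its CPM was 22.3 and 23.7 in RMN038 and RMN039 (KO), 22.3 and 20.7 in RMN032 and RMN033, 47.3 and 31.2 in RMN036 and RMN037, and 34.6 and 32.9 in RMN030 and RMN031 (WT). All libraries titled KO lay below all libraries titled WT, which held for 1.53% of all genes tested (2.94% in either direction). The log2 difference by title was -0.72 ± 0.17 (SE, edgeR adjusted p = 0.802). Rrm2, which supplies nucleotides for replication, had -0.41 ± 0.20, Mcm7, another helicase subunit gene, -0.30 ± 0.17, and the mitotic cyclin gene Ccnb1 -0.19 ± 0.24 by title (SE). The list's median was -0.07, -0.18 and 0.09.

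Over the 8 libraries, 10298 genes with a mean of at least 5 CPM were compared with Ezh2 by the log2 CPM. Ctdsp1 was most like it (Pearson r 0.964, Spearman rho 0.976), followed by Ppm1n (0.948 and 0.857) and Copz1 (0.936 and 0.976). Without RMN031 and RMN039, the libraries farthest from the median of Ezh2, Pearson r was 0.931, 0.841 and 0.898. These are descriptions over libraries that share preparation and depth, picked as the highest of all genes compared.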

How the data were processed

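Bulk RNA was sequenced from 8 libraries of sorted epidermal Langerhans cells. The authors deposited raw counts, given per Ensembl gene. STAR 2.5.2b, featureCounts 1.5.0 and build GRCm38 (mm10) are named per the submitters' processing notes. The strand setting was not given in the sources used here, and the spans of 8 of the 10 PRC2 genes overlap an annotated gene on the opposite strand. Spans include introns. Whether exons overlap, and so whether reads of the other gene could be counted, was not tested. Symbols were matched for 25080 of 25247 identifiers, and 0 columns were left unused.

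CPM is counts scaled to the column total (the usual CPM scale), and RPKM is CPM per kilobase of merged GENCODE exons. Quasi-likelihood F-tests (edgeR 4.0.16, R 4.3.3; two-sided, robust, TMM totals, filterByExpr) gave KO minus WT or later minus earlier differences, fitted and Benjamini-Hochberg adjusted over all genes, with 0.05 as threshold. DESeq2 1.42.0 and limma 3.58.1 voom were alternatives. The Ezh1 to Ezh2 ratio was tested by exact permutation, and the other ratios were not tested. Its adjustment and the binomial intervals used scipy 1.17.1. SE and intervals come from the F statistic. Simulated data with known changes were used to test the edgeR step. Of 2-fold changes, it recovered 49% in the undisputed libraries, 63% by title, 76% by description and 17% for the interaction. False calls were 12 of 153 in the undisputed libraries, 6 of 166 by title, 11 of 186 by description and 13 of 103 for the interaction. Changes were planted only in genes with a higher mean count than Phf19 had, so these rates do not cover Phf19. Changes under 2-fold were not simulated, so the test does not say how many such changes would be called.

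The members and lists were chosen with earlier results of these data known. Named were all 10 members, the 3 genes most like Ezh2, and up to 4 genes per list with the smallest p in any reading. The code reading of each library is given in the report, and none was preferred. A correlation over 0.1 in every pair was asked before replicate numbers were taken to pair libraries. It was -0.01 to 0.10, so they were not paired.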

Additional observations from a re-analysis of the deposited data

Results flagged for a closer look

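In 4 of 44 groups of 4 libraries, 1 library lay far from the rest of its group by the gap relative to the group's range. For independent groups of normally distributed values chance gives about 1 in 20, or 2.2 groups. These groups are not independent, since both readings use the same libraries and the Ezh1 to Ezh2 ratio repeats the values of its genes. The 2 counts are therefore no test. In the title reading, Rbbp7 was 146 CPM in KO library RMN038, against 130.3 to 132 CPM in the other KO libraries. In the description reading, Jarid2 was 87.7 CPM in KO library RMN036, against 72.6 to 75.0 CPM in the other KO libraries. Ezh2 was 22.4 CPM in WT library RMN031, against 14.9 to 15.7 CPM in the other WT libraries of that reading. Suz12 was 7.03 CPM in WT library RMN030, against 11.6 to 12.4 CPM in the other WT libraries.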

How the results depend on the processing

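Over 574 recomputed values of single members, 533 kept their direction and side of the threshold, 37 changed sign without ever being called, and 4 passed the threshold, Jarid2 and Rbbp7 under DESeq2. DESeq2 thus called 2 members by description (log2 -0.37 and 0.32) and 2 for code run. Genes called in the undisputed libraries numbered 117, against 440 without the filter, 305 with DESeq2 and 263 to 629 with 1 library left out, where the lone library is assumed to vary like the others. By title 0 were called, against 1 without the filter, 19 with DESeq2, 57 within the earlier code run and 0 with a library left out. By description 296 were called, against 660 with DESeq2 and 140 to 219 with a library left out. Replicate numbers did not pair the libraries. With the replicate number as a block, 7 genes were called by title and 166 by description, and 0 members. For title genotype beside code run 0 were called, against 139 without the filter, 45 with DESeq2, 3 with voom and 0 to 10 with a library left out. For code run 320 were called, against 854, 743, 198 without RMN030 and RMN031, and 137 to 222. For the interaction 3 were called, against 178 without the filter, 6 with a filter at 1 CPM, 97 with DESeq2 and 0 to 8 with a library left out. With 1 library left out, member differences that kept their sign in the undisputed libraries ran from -0.88 to -0.41 for Ezh2, 0.21 to 0.99 for Suz12, -0.49 to -0.11 for Mtf2, 0.45 to 0.58 for Aebp2, 0.32 to 0.44 for Rbbp7 and -0.47 to -0.32 for Jarid2. For Suz12 and Phf19 they ran from 0.13 to 0.40 and -0.77 to -0.22 by title, and from 0.12 to 0.39 and 0.44 to 0.95 by description. The cause of these moves was not tested.

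Title differences that changed sign lay between -0.17 and 0.05. Ezh1 became -0.049 within the later run, Rbbp4 0.026 within the earlier, and Mtf2 0.046 without RMN030 and RMN031. Eed became -0.0021 with a filter at 1 CPM, -0.084 with voom, -0.14 without RMN030 and RMN031 and -0.0096 within the later run. Rbbp7 became -0.17 without RMN030 and RMN031 and -0.093 within the later run, and Jarid2 -0.0016, -0.012 and -0.12 under the 1 CPM filter, the block and the later run. Beside code run, Rbbp7 became -0.093 without RMN030 and RMN031 and Jarid2 0.013 with voom, and by description Ezh2 became 0.049 without RMN030 and RMN031. With 1 library left out, signs changed by title for Ezh1 (-0.013 to 0.14), Eed (-0.17 to 0.083), Rbbp4 (-0.054 to 0.0017), Rbbp7 (-0.032 to 0.14) and Jarid2 (-0.089 to 0.086), and beside code run for Jarid2 (-0.068 to 0.057). They also changed in the undisputed libraries for Ezh1 (-0.25 to 0.14), Eed (-0.093 to 0.83), Rbbp4 (-0.0045 to 0.14) and Phf19 (-0.21 to 0.67), and by description for Ezh2 (-0.28 to 0.0097) and the Ezh1 to Ezh2 ratio (-0.088 to 0.22).

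Length changes the balance by construction. Ezh1 to Ezh2 averaged 3.73, against 2.75 with coding transcripts, Rbbp7 to Rbbp4 3.95, against 1.31 from plain counts and 2.58, and PRC2.2 to PRC2.1 2.26, against 3.91 and 2.63. Rbbp7's share was 46.7%, against 26.1% and 39.2%. Members not overlapping by description became 2 with TMM-scaled totals. The coding length, TMM scaling and the covariate fits without RMN030 and RMN031 were added after the data were seen.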
